A study of Mus musculus with 20 samples.

Results

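Very long genes were taken as protein-coding genes whose annotated span, from the first to the last base of any transcript, was 400 kb or more, whose mean raw count over the 20 tumors was 50 or more, and whose symbol did not start with Col, Lam, Adamts or Itg. This left 136 genes of the 35226 listed. The mouse annotation held 354 protein-coding genes of that span, of which 340 were listed. Of these, 202 were under the mean count, 76 of them with a mean under 1, and 2 (Adamtsl1 and Lama2) were left out by symbol. All 136 passed the filter on low counts, which kept 16665 genes.

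RNA was sequenced from subcutaneous tumors of LLC1 cells, a Lewis lung carcinoma line, grown in C57Bl6/J male mice. There were 4 groups of 5 tumors: vehicle; KW6002 (istradefylline, an antagonist of an adenosine receptor); cisplatin; and cisplatin with KW6002, here called cotreated. All mice carried the same line, no gene was altered, and dosing began once tumors had reached a set volume. Whole tumors were used, so a lower level may reflect fewer cells of a type or less RNA per cell, and these cannot be told apart. Of 6 genes looked at to check the carcinoma label, Krt8 had a median of 155 CPM (counts per 1000000 counts of the library, scaled between libraries) and Krt18 289 CPM, Vim had 3318 CPM, Cdh1 was at 1.24 to 3.82 CPM and Epcam at 0 to 0.142 CPM. The epithelial adhesion genes Cdh1 and Epcam were thus low or at 0. Krt8 was higher with cisplatin (167 to 212.5 CPM, beside 94.99 to 142 CPM without it), as was Krt18 (288.63 to 373 CPM, beside 224 to 288.57 CPM). Mki67, made by dividing cells, had group medians of 441 CPM with vehicle, 374 with KW6002, 340 with cisplatin and 254 when cotreated. The part of these shifts in the changes of long genes was not tested.

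RNA polymerase II copies a gene from end to end, so a gene that spans more DNA keeps the enzyme on the template for longer. Cisplatin links neighbouring purines on 1 DNA strand, mostly in GG and AG pairs, and a polymerase that meets such a crosslink stalls until transcription-coupled repair removes it. Longer transcription units offer more sites for a crosslink, and several of the longest genes in mammals lie at common fragile sites, regions that break when DNA copying is slowed. The comparison asked whether genes of this span fell after cisplatin.

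Very long genes changed in both directions. With against without cisplatin, taken as the mean of the cisplatin against vehicle and cotreated against KW6002 differences, 14 of the 136 very long genes were lower and 21 were higher (called: adjusted p below 0.05 by edgeR's quasi-likelihood test over all tested genes, and a log2 difference of at least 0.32). That is 10.3% lower and 15.4% higher. Over all tested genes 9.23% were lower and 12.6% higher, and among 11766 protein-coding genes under 400 kb with the same mean count 8.78% were lower and 9.23% higher. The median log2 difference of the long genes was 0.03, beside -0.02 for the shorter protein-coding genes, and it turned to -0.05 within the 12 tumors of the later library codes described further on. It was below 0 for 64 of the 136 long genes (47.1%), beside 54.4% of the shorter ones. More genes were higher than lower over all tested genes as well. The share of long genes lower lies near those of both other sets. The share higher was above both, and further above that of the shorter protein-coding genes. Whether these shares differ was not tested. Of the 136, 4 had a mean count under 50 in the tumors without cisplatin and entered through those with it: Pcdh9, Ppp2r2b and Aff2, which were called higher and whose calls are no support for a rise, and Npas3, which was not called. Without these 4, 14 of 132 genes (10.6%) were lower and 18 (13.6%) higher.

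**Figure D1:**
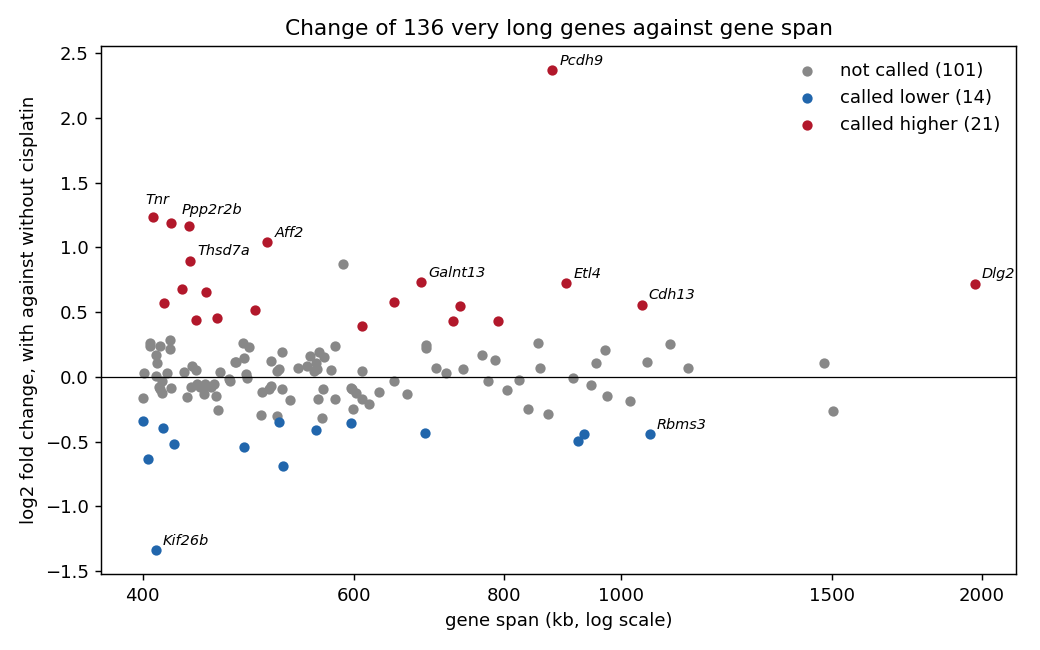
Log2 fold change with against without cisplatin (vertical axis) against gene span in kb (horizontal axis, log scale) for the 136 very long genes, 1 point per gene. The 14 genes called lower and the 21 called higher lie on both sides of 0 across the range of spans, from Kif26b at -1.34 to Pcdh9 at 2.37.

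Within the class the change did not follow the span. Spearman's rho between span and log2 difference over the 136 genes was 0.015, given as a description since genes of a tumor share a library. The rho with the longest stretch between annotated exons was 0.16, and with the mean level it was -0.20. The mean count that defines the class kept low genes that rose, and over the 132 genes that met it without cisplatin the 3 values were 0.02, 0.14 and -0.16. Binned by span, the share of protein-coding genes called lower was 8.68% of 6025 genes under 25 kb, 8.12% from 25 to 50 kb, 9.21% from 50 to 100 kb, 9.16% from 100 to 200 kb, 11.6% of 396 genes from 200 to 400 kb and 10.3% at 400 kb or more. The share called higher was 9.34%, 8.12%, 8.59%, 11.1%, 12.6% and 15.4% in these bins, so it was lowest between 25 and 100 kb. Both shares were larger in the 2 longest bins than under 25 kb. The 15.4% falls to 13.6% without the 4 genes under the mean count in the tumors without cisplatin, a rule that was not applied to the shorter bins. The median log2 difference of the class minus that of genes under 25 kb was 0.044, but -0.087 within the later library codes described further on.

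**Figure D2:**
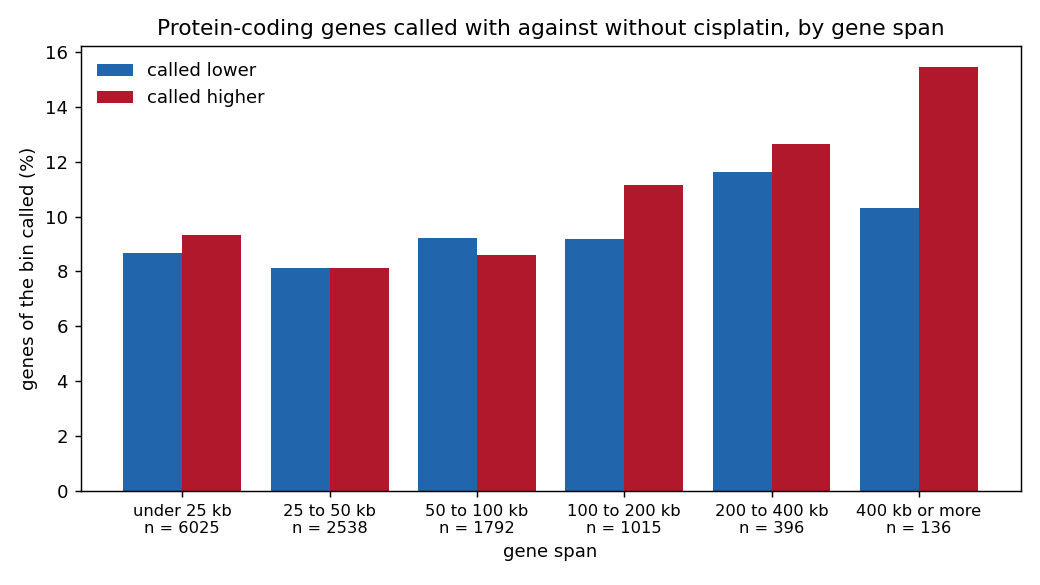
Percent of protein-coding genes called lower (blue) and higher (red) with against without cisplatin in each bin of gene span, with the number of genes under each bin. The bars run from 8.68% lower and 9.34% higher under 25 kb to 10.3% lower and 15.4% higher at 400 kb or more (13.6% higher without the 4 genes under the mean count in the tumors without cisplatin).

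Span and the length that is counted are different things: the median span was 523 kb against 24.2 kb for the shorter genes, but exons made up a median of 11.5 kb against 4.57 kb. Among long genes with 15 kb or more of exons, 2 of 34 (5.88%) were lower and 6 (17.6%) higher, beside 10.1% and 7.41% of shorter protein-coding genes with as much exon. Among those with 10 to 15 kb, 7 of 49 (14.3%) were lower and 7 (14.3%) higher, beside 7.39% and 7.99%. Among those with 5 to 10 kb, 4 of 44 were lower and 6 higher (9.09% and 13.6%, beside 8.41% and 8.59%). Under 5 kb 1 of 9 was lower and 2 higher (11.1% and 22.2%, beside 9.13% and 9.88%). Of the 136, 23 had a principal transcript that spans less than 400 kb, 9 of them less than 200 kb. Gene counts do not show which start a tumor used, so for those genes the length that was transcribed is not known. In the 113 others, 9 genes (7.96%) were lower and 19 (16.8%) were higher, beside 9.23% and 12.6% of all tested genes. The 19 hold Pcdh9, Ppp2r2b and Aff2, which met the mean count only through the tumors given cisplatin and whose calls are no support for a rise. The called genes left out with the 23 are Psd3, Hivep3, Nfib, Pde4b and Bnc2, which fell, and Rora and Pde10a, which rose. The principal transcript of Rora spans 90.1 kb of 734.5 kb.

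The largest fall was that of Kif26b (chromosome 1, 410 kb), a kinesin family protein of cell polarity and adhesion. It stood at 6.36, 7.77, 8.10, 11.2 and 6.42 CPM in the vehicle tumors and at 9.73, 5.55, 6.39, 7.88 and 6.33 CPM with KW6002. With cisplatin it stood at 3.15, 2.72, 3.45, 2.61 and 3.76 CPM, and at 4.23, 1.82, 2.39, 2.64 and 3.15 CPM in the cotreated tumors. Every tumor given cisplatin was below every tumor without it. The log2 difference was -1.34 ± 0.14 (SE; adjusted p = 5.00e-07, edgeR).

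The largest difference upward was that of Pcdh9 (chromosome 14, 877 kb), a protocadherin of cell adhesion. It stood at 0.411 to 0.738 CPM in the 10 tumors without cisplatin, at 1.79, 2.64, 2.60, 1.84 and 2.87 CPM with cisplatin, and at 3.50, 5.37, 4.26, 2.45 and 4.62 CPM in the cotreated tumors. The groups did not overlap. The gene was low in all tumors: 13 to 22 counts (mean 18.2) without cisplatin and 53 to 195 (mean 110.3) with it, so that it met the mean count of 50 only through the tumors given cisplatin. Its log2 difference of 2.37 is therefore given as a description, with no test. The 250 bases before the annotated start of these 2 genes are shown, since they moved most in each direction, from RefSeq on GRCm38.p6. Capitals mark runs of GG, the pair that cisplatin links most, on the strand of the gene:
Kif26b, chr1:178528875-178529124, plus strand: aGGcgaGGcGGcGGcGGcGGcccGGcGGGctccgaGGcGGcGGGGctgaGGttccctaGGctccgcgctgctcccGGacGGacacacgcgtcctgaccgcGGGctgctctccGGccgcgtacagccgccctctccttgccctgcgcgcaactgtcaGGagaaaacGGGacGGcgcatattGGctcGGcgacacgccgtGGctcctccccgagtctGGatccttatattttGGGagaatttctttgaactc
Pcdh9, chr14:93890680-93890929, minus strand: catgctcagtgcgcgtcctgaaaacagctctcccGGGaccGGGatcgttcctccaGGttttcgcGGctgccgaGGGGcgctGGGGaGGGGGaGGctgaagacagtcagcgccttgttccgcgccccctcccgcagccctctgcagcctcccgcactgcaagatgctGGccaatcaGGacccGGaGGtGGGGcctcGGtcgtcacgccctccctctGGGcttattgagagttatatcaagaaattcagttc
Counted on both strands, with overlapping pairs counted each, both stretches held 55 GG pairs. A promoter was matched for 109 of the 136 genes, but in only 84 was the nearest window within 1000 bases of the gene's annotated start. Over all 109 the median was 55 GG pairs, with 44.5 in the 10 called lower, 43 in the 17 called higher and 56 in the 82 not called. In the 84 the median was 56. It was 58 in the 6 called lower, 54 in the 13 called higher and 57 in the 65 not called, beside 40 in all 32851 promoters of the table. At least 1 pair was present in 100% of the matched genes and in 99.99% of all promoters. This describes the letters of the window and says nothing about crosslinks, which were not measured.

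**Figure D3:**
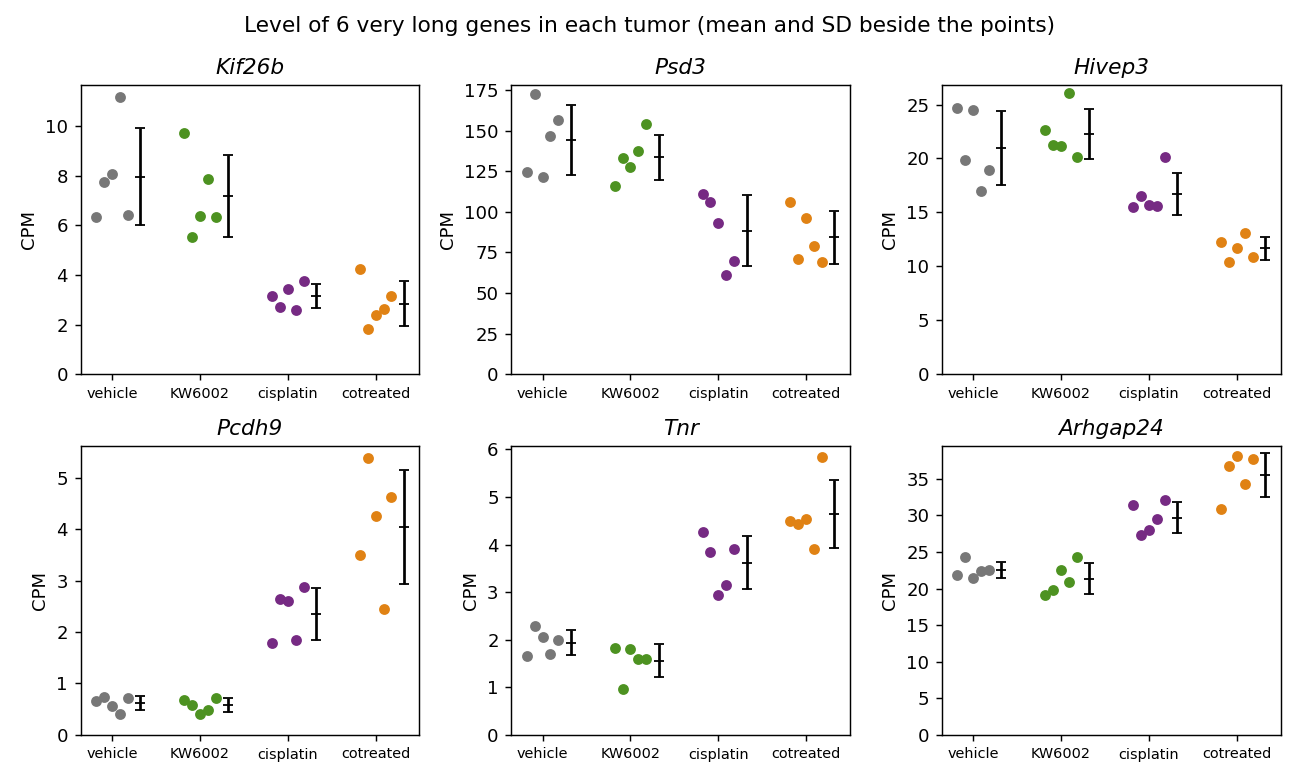
CPM in each of the 20 tumors (points) for 6 very long genes, by group, with the mean and SD beside each group. Kif26b and Psd3 are lower, and Pcdh9, Tnr and Arhgap24 higher, in every tumor given cisplatin than in any without, and Hivep3 overlaps.

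For 11 of the 136 genes (8.09%) the 10 tumors with cisplatin did not overlap the 10 without, beside 852 (5.11%) of all tested genes. Pcdh9 and Ppp2r2b are among the 11, which leaves 9 that met the mean count in the tumors without cisplatin too. Kif26b and Psd3 were the 2 that fell. Psd3, an exchange factor for Arf GTPases, ran from 116 to 173 CPM (median 135) without cisplatin and from 61.3 to 111 CPM (median 85.9) with it. Its log2 difference was -0.69 ± 0.11 (SE; adjusted p = 6.88e-05, edgeR). Its principal transcript spans 214 kb of the 523 kb, and within the 8 tumors of the earlier library codes described further on its difference was -0.32 (adjusted p = 0.113, edgeR), which did not pass.

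The other 9 were higher. Tnr, the extracellular matrix protein tenascin-R, ran from 0.967 to 2.29 CPM (median 1.76) without cisplatin and from 2.93 to 5.83 CPM (median 4.08) with it. Ppp2r2b, a regulatory subunit of protein phosphatase 2A, ran from 0.703 to 1.70 CPM (a mean of 37.5 counts, under the limit of 50) and from 1.96 to 3.48 CPM, and is given as a description. Thsd7a, a thrombospondin repeat membrane protein, ran from 8.26 to 11.6 CPM and from 12.3 to 29.5 CPM. These 3 were taken from the genes without overlap, so that their levels with and without cisplatin did not meet follows from that choice.

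Genes at higher levels were among those that rose as well. Exoc4, a subunit of the exocyst that tethers vesicles, ran from 205 to 284 CPM (median 255) without cisplatin and from 287 to 409 CPM (median 338) with it, a log2 difference of 0.43 ± 0.07 (SE; adjusted p = 2.87e-05, edgeR). Agap1, a GTPase-activating protein for Arf, ran from 81.4 to 101 CPM and from 109 to 138 CPM. Cdh13, a cadherin anchored to the membrane by a lipid, ran from 40.1 to 62.4 CPM and from 62.9 to 82.9 CPM. Arhgap24, which inactivates Rac, ran from 19.2 to 24.3 CPM and from 27.3 to 38.1 CPM, and Etl4 from 4.84 to 7.56 CPM and from 8.19 to 12.6 CPM.

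The 10 longest genes spanned 974 to 1973 kb. Of these 1 fell (10%) and 2 rose (20%), few genes to set beside the 9.23% lower and 12.6% higher of all tested genes. Rbms3, an RNA-binding protein (1057 kb), fell, with a log2 difference of -0.44 ± 0.09 (SE; adjusted p = 0.000526, edgeR). It was at -0.24 within the earlier library codes described further on (adjusted p = 0.141, edgeR), which did not pass. Dlg2, a synaptic scaffold and the longest gene of the class (1973 kb), rose by 0.72 ± 0.12 on the log2 scale (SE; adjusted p = 6.99e-05, edgeR), and Cdh13 (1041 kb) rose by 0.56 ± 0.07 (SE; adjusted p = 2.82e-06, edgeR). Dlg2 was at 5.45 to 9.34 CPM without cisplatin and at 7.64 to 18.5 CPM with it, so the groups overlapped. Its difference was 0.43 in cisplatin against vehicle (adjusted p = 0.0891, edgeR), which did not pass, and 1.01 in cotreated against KW6002 (adjusted p = 0.000126, edgeR).

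The other 7 were not called. Pde4d, a cyclic AMP phosphodiesterase (1504 kb), was at -0.26, Zfhx3 at -0.18 and Anks1b at 0.26 on the log2 scale, each with an adjusted p below 0.05 and a difference under the limit of 0.32 (adjusted p = 0.0106, 0.0417 and 0.0156, edgeR). Magi2, a membrane scaffold (1478 kb), was at 0.11, Galntl6 at 0.07, the proteoglycan Gpc6 at 0.11 and the adhesion protein Sdk1 at -0.15.

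At common fragile sites, 8 of the listed genes were in the class: 1 fell (12.5%), 2 rose (25%) and 5 were not called, beside 9.23% lower and 12.6% higher of all tested genes. Wwox, an oxidoreductase across one of the most fragile sites (913 kb), was at 19.1 to 23.3 CPM without cisplatin and at 18.4 to 23.9 CPM with it, a log2 difference of -0.01 ± 0.05 (SE; adjusted p = 0.915, edgeR). Its sign turned with several settings. Immp2l, a subunit of a mitochondrial inner membrane peptidase (931.5 kb), fell by 0.44 ± 0.08 on the log2 scale (SE; adjusted p = 0.000175, edgeR), and its difference of -0.49 within the earlier library codes did not pass (adjusted p = 0.0507, edgeR). Dlg2 and Exoc4 were the 2 that rose. Magi2 (0.11) and Nbea (0.06) were not called, nor was the recombination gene Rad51b, which was at -0.30 (adjusted p = 0.000684, edgeR), short of the limit.

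By function, both directions are found in most groups. Beside the counts stand the shares over all tested genes, 9.23% lower and 12.6% higher. The groups hold 4 to 25 genes, so each share rests on few, and the counts include Pcdh9, Ppp2r2b and Aff2. Of 25 adhesion, axon guidance and synapse genes, 1 fell (Grm7, a glutamate receptor) and 6 rose: Pcdh9, Tnr, Thsd7a, Dlg2, Hmcn1 and Cdh13. Of 21 channel, transporter and enzyme genes, 1 fell (Immp2l) and 3 rose: Cacna1c and Cacna1d, pore subunits of L-type calcium channels, and Galnt13, which starts O-linked sugar chains. Cacna1c was at 80.5 to 104 CPM without cisplatin and at 98.1 to 137 CPM with it, a log2 difference of 0.40 ± 0.06 (SE; adjusted p = 2.69e-05, edgeR). Within the later codes it was 0.29, under the limit. Of 16 kinase, phosphatase and second messenger genes, 2 fell (Ptprm and Pde4b) and 3 rose (Ppp2r2b, Pde10a and Ptprn2).

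Of 22 transcription factor and chromatin genes, 4 fell (Hivep3, Nfib, Mecom and Bnc2) and 2 rose (Aff2 and Rora), and 14 of the 22 (63.6%) had a log2 difference below 0, beside 50.9% of all tested genes and 54.4% of the shorter protein-coding genes. Bnc2 was near the limit, at -0.34. It was at -0.318, no longer called, with the library codes described further on as a term, and at -0.07 within the earlier codes. Hivep3, a zinc finger protein, was at 24.7, 19.9, 24.5, 17.0 and 18.9 CPM with vehicle and at 15.5, 16.5, 15.7, 15.6 and 20.1 CPM with cisplatin. It was at 20.1 to 26.0 CPM with KW6002 and at 10.4 to 13.1 CPM when cotreated. The difference with against without cisplatin was -0.63 ± 0.08 (SE; adjusted p = 1.71e-06, edgeR).

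Nfib and Mecom bind DNA as well. Nfib ran from 24.97 to 35.7 CPM (median 30.2) without cisplatin and from 21.5 to 25.1 CPM (median 22.7) with it, so that the groups met only at the edge. Mecom ran from 36.9 to 43.8 CPM and from 26.1 to 40.4 CPM. Both were lower in cisplatin against vehicle (-0.48 and -0.43 on the log2 scale, adjusted p = 0.000905 and 0.00182, edgeR). In cotreated against KW6002 they were at -0.31 and -0.27, short of the limit of 0.32. Aff2, a nuclear protein of the X chromosome, ran from 0.914 to 2.18 CPM without cisplatin and from 1.93 to 4.88 CPM with it. It had a mean of 42.5 counts without cisplatin, so its log2 difference of 1.04 is a description. Rora, a nuclear receptor, was called with the 2 comparisons averaged (0.55 ± 0.18, SE; adjusted p = 0.0179, edgeR) and in neither by itself.

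Among 13 regulators of small GTPases, 2 fell (Psd3 and Dock2, an activator of Rac in blood cells) and 2 rose (Arhgap24 and Agap1). Among 14 cytoskeletal and motor genes, 2 fell (Kif26b and the formin Fhod3) and 1 rose (the dynamin Dnm3, 0.52, and 0.35 within the later codes, where it did not pass, adjusted p = 0.0743, edgeR). Among 13 genes of ubiquitin, autophagy and membrane traffic, 1 fell (Rims2) and 1 rose (Exoc4). Of 4 RNA-binding genes, 1 fell (Rbms3). Of 8 in no list, 3 rose, among them Etl4 and Mctp1. Those called that are not named by rule were listed after their values were seen.

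Dock2 and Fhod3 differed in size between the comparisons. Dock2 ran from 30.2 to 45.3 CPM without cisplatin and from 24.1 to 37.3 CPM with it. Its log2 difference was -0.16 in cisplatin against vehicle (adjusted p = 0.242, edgeR) and -0.66 in cotreated against KW6002 (adjusted p = 2.24e-05, edgeR). Fhod3 was at -0.09 (adjusted p = 0.74, edgeR) and -0.94 (adjusted p = 0.000234, edgeR). The interaction did not pass for either (adjusted p = 0.128 for Dock2 and 0.144 for Fhod3, edgeR).

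Rims2, which organises vesicle release, and Ptprm, a receptor tyrosine phosphatase, were lower in both comparisons. Rims2 was at -0.52 and -0.56 and Ptprm at -0.41 and -0.45 on the log2 scale in cisplatin against vehicle and in cotreated against KW6002, all 4 called. Grm7 was at -0.69 in the first (adjusted p = 0.0286, edgeR) and at -0.30 in the second (adjusted p = 0.284, edgeR). Pde4b, a cyclic AMP phosphodiesterase like Pde4d, ran from 24.0 to 36.1 CPM without cisplatin and from 16.1 to 31.4 CPM with it.

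Among the genes that rose with overlap between the groups, Galnt13 ran from 7.41 to 15.3 CPM without cisplatin and from 12.9 to 24.0 CPM with it, Cacna1d from 5.09 to 9.48 CPM and from 8.29 to 14.6 CPM, and Mctp1 from 12.7 to 22.3 CPM and from 20.8 to 34.4 CPM. In each of these the medians were further apart than the overlap was wide. Hmcn1, an extracellular matrix protein, ran from 1.05 to 2.69 CPM and from 1.49 to 7.38 CPM, with medians of 2.09 and 2.63 CPM. Slit3, a secreted guidance protein, had a log2 difference of 0.87, larger than most that were called, and was not called (adjusted p = 0.0673, edgeR). Its level was 4.92 ± 1.86 CPM with vehicle and 10.7 ± 9.39 CPM with cisplatin (SD, n = 5).

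Cell type markers moved with cisplatin as well. Of 10 endothelial markers 10 were lower, and their summed level was 191 to 279 CPM with vehicle, 169 to 267 with KW6002, 101.9 to 135 with cisplatin and 105 to 155 when cotreated. Of 6 tested neutrophil markers 4 were lower, and the 8 listed summed to 47.9 to 152.6 CPM without cisplatin and 15.5 to 70.5 CPM with it. Of 11 T and NK cell markers 6 were lower and 1 higher, but the 2 comparisons differed: in cisplatin against vehicle 0 were lower and 1 higher, with a mean sum of 9.50 ± 4.18 CPM with vehicle and 14.3 ± 8.01 with cisplatin (SD, n = 5), and in cotreated against KW6002 6 were lower and 0 higher, with 15.2 ± 11.8 CPM with KW6002 and 7.68 ± 3.20 when cotreated. The sums ran from 3.47 to 35.3 CPM without cisplatin and from 5.62 to 24.4 CPM with it. The nerve and Schwann cell markers, 9 tested, had 1 lower and 2 higher, and the 12 listed summed to 95.6 to 121 CPM without cisplatin and to 123 to 154 CPM with it. Of 10 macrophage markers 1 was lower and 2 higher. Of 10 fibroblast markers 2 were lower and 1 higher. Of 5 tested red blood cell markers 5 were lower, and the 7 listed summed to 25.8 to 117 CPM without cisplatin and to 0.0908 to 0.276 CPM with it. Of 12 skeletal muscle markers 1 was higher, all 12 had a log2 difference above 0 (median 2.46), and their sum ran from 5.41 to 319 CPM without cisplatin and from 4.40 to 1475 CPM with it. Of 9 adipocyte markers 0 were called, all 9 had a log2 difference below 0 (median -2.21), and the 10 listed summed to 27.5 to 403 CPM without cisplatin and to 20.7 to 104.5 CPM with it. The skin epidermis list had 1 tested gene, not called. Their part in the change of any long gene was not tested.

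Of the other genes of the process, 64 of elongation by RNA polymerase II were tested, beside the 9.23% lower and 12.6% higher of all tested genes: 1 (1.56%) fell (Supt16, of the FACT histone chaperone) and 6 (9.38%) rose. The log2 difference was below 0 for 39 of the 64 (60.9%), beside 50.9% of all tested genes and 54.4% of the shorter protein-coding genes. Those that rose were Tcea2 and Tcea3, which restart stalled polymerase, Ell and Eaf2, and Hexim1 and Hexim2, which hold back the kinase P-TEFb. Hexim1 went from 53.3 ± 5.09 to 70.8 ± 5.89 CPM (SD, n = 10) and Ell from 50.2 ± 4.01 to 62.8 ± 5.32 CPM. Tcea3 was near the floor, at 0.140 ± 0.101 CPM without cisplatin and 0.5004 ± 0.527 CPM with it. Of 35 genes of transcription-coupled and excision repair, 1 (2.86%) fell (Lig3, -0.35) and 3 (8.57%) rose: Ercc1 (0.42), the partner of a nuclease, the nuclease Ercc5 (0.76), and the damage-binding protein Xpa (0.38). In cisplatin against vehicle 1 of the 35 was lower and 2 higher (2.86% and 5.71%, beside 4.57% and 6.01% of all tested genes), and in cotreated against KW6002 6 were lower and 6 higher (17.1% each, beside 10.7% and 12.6%).

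The effect of cisplatin was measured in 2 comparisons that share no tumor. In cisplatin against vehicle, 10 of the 136 genes (7.35%) were lower and 15 (11%) higher. All tested genes gave 4.57% and 6.01%, and protein-coding genes under 400 kb 5.05% and 5.36%. The count of long genes lower was 6 without cisplatin replicate 4, and also 6 when only these 2 groups were fitted. In cotreated against KW6002, 12 (8.82%) were lower and 28 (20.6%) higher. Here all tested genes gave 10.7% and 12.6%, and the shorter protein-coding genes 11.6% and 10.7%. The median log2 difference of the long genes was -0.03 and 0.05 in turn, and it was below 0 for 77 of the 136 (56.6%) in the first and 65 (47.8%) in the second. The sign of the first median was not stable when 1 tumor at a time was left out. It ran from -0.049 (without cisplatin replicate 2) to 0.034 (without cisplatin replicate 4). The median in cotreated against KW6002 ran from 0.026 to 0.077.

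The 2 measurements had the same sign for 100 of 136 genes (73.5%), beside 76.8% of the shorter genes. Pearson's r over the 136 was 0.83, beside 0.81 over the shorter genes. Lower in both were 5 genes, which is 50% of the first list and 41.7% of the second. Higher in both were 14, which is 93.3% of the first and 50% of the second. No gene was called in opposite directions. These counts hold Pcdh9, Ppp2r2b and Aff2, and the matching counts over all tested genes are not given here. Over the 132 genes with a mean count of 50 or more without cisplatin, 12 (9.09%) were higher in the first comparison, 25 (18.9%) in the second and 11 in both (91.7% of the first list and 44% of the second), 96 had the same sign and r was 0.78. The genes lower were 10 (7.58%), 12 (9.09%) and 5 in both.

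**Figure D4:**
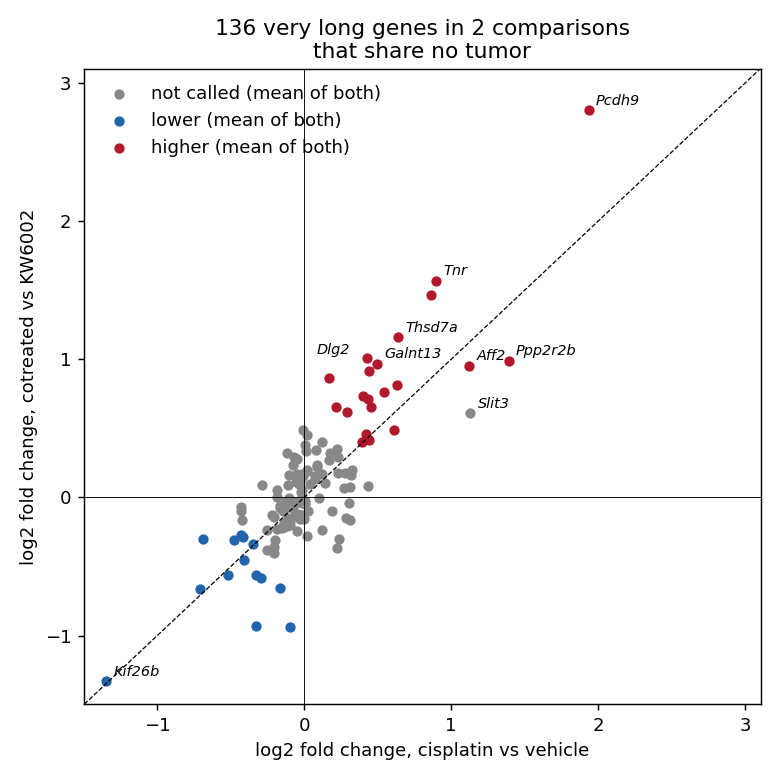
Log2 fold change of the 136 very long genes in cisplatin against vehicle (horizontal axis) and in cotreated against KW6002 (vertical axis), with the line of equality dashed and colours for the call on the mean of both. The genes called lie in the lower left and upper right, and 100 of the 136 have the same sign in both.

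KW6002 by itself left no long gene called against vehicle, as it left 0% of all tested genes (3 of the 136, or 2.21%, had an unadjusted p below 0.05, beside 2.03% of all tested genes; DESeq2 called 0). The difference between the 2 cisplatin effects, the interaction, passed for 0 of the 136 with edgeR, beside 0.066% of all tested genes. An unadjusted p below 0.05 was found for 23 of the 136 (16.9%), beside 12.2% of all tested genes, and DESeq2 called 3, beside 1.27%. The smallest adjusted p was that of Hivep3 (0.106, edgeR), with a log2 interaction of -0.60.

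In cotreated against cisplatin, 16 long genes (11.8%) were called, beside 4% of all tested genes. Lower were Erc2, Hivep3, Immp2l, Fhod3, Rasgef1b, Plxna4, Anks1b, Nav2 and Dock2, and higher were Dnm3, Thsd7a, Pcdh9, Ptprk, Oxr1, Sema3a and March1. Erc2, a scaffold of the presynaptic active zone (856 kb), was at 19.2, 17.3, 15.3, 12.7 and 14.99 CPM with cisplatin and at 10.5, 11.2, 10.8, 11.2 and 10.5 CPM when cotreated, with no overlap, and at 10.0 to 13.9 CPM in the tumors without cisplatin. The difference was -0.55 ± 0.10 (SE; adjusted p = 0.00275, edgeR). Immp2l was at 5.01, 4.14, 3.87, 4.05 and 4.57 CPM with cisplatin and at 2.40, 2.59, 3.17, 3.39 and 3.56 CPM when cotreated. In cotreated against vehicle 42 (30.9%) were called, beside 23.5% of all tested genes. Both counts are over the whole class, including Pcdh9, Ppp2r2b and Aff2, which met the mean count only through the tumors given cisplatin. Counts without these genes are not given here for these 2 comparisons.

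These 16 calls varied with the fit and with the tumors included. Fitted on only the groups compared 2 were called, and 0 when tested against the fold limit itself. The libraries carried codes in 2 runs, an earlier (8 tumors) and a later (12 tumors), and each group had tumors in both. The earlier run holds only 1 vehicle tumor, 2 with KW6002, 2 with cisplatin and 3 cotreated, and its vehicle tumor is assumed to vary like the other groups. Within the later codes 0 of the 136 were called in cotreated against cisplatin, beside 1 of 17222 tested genes, and within the earlier codes 3, beside 1.62% of tested genes, so that calls were few over all genes in these smaller fits. Without cisplatin replicate 3 or 4 the count was 8 or 10, and without cotreated replicate 1, 2 or 3 it was 9, 8 or 5.

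More long genes were higher than lower in both runs of codes, while the median of the class had a different sign in each. Within the earlier codes 6 long genes were lower and 26 higher with against without cisplatin, with a median log2 difference of 0.05 (8.26% and 8.58% of all tested genes). Within the later codes 14 were lower and 19 higher, with a median of -0.05 (7.66% and 11.2%). Per tumor, the mean log2 CPM of the 136 genes relative to the vehicle mean was 0.08 and 0.12 in the 2 cisplatin tumors of the earlier codes and -0.03, -0.09 and 0.08 in the 3 of the later. In the cotreated tumors it was 0.08, 0.10 and 0.12 in the earlier codes and 0.04 and 0.02 in the later. Without cisplatin it ran from -0.07 to 0.02 in the 10 tumors. The counts within the codes and these means are over all 136 genes, Pcdh9, Ppp2r2b and Aff2 among them. For the counts, no values without these genes are given. Over the 132 genes with a mean count of 50 or more without cisplatin, the means were 0.05 and 0.09 with cisplatin and 0.06, 0.06 and 0.09 when cotreated in the earlier codes. In the later codes they were -0.06, -0.12 and 0.04 with cisplatin and 0.02 and -0.01 when cotreated, beside -0.07 to 0.03 without cisplatin. The median over the genes in place of the mean was below 0 in all 5 tumors given cisplatin in the later codes (-0.09, -0.17 and -0.02 with cisplatin, -0.03 and -0.05 when cotreated), where the mean was above 0 in 3 of them. Without cisplatin this median ran from -0.07 to 0.05, so -0.02, -0.03 and -0.05 lie within that range. What the codes stand for is not given in the labels, and the difference between them was not tested.

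**Figure D5:**
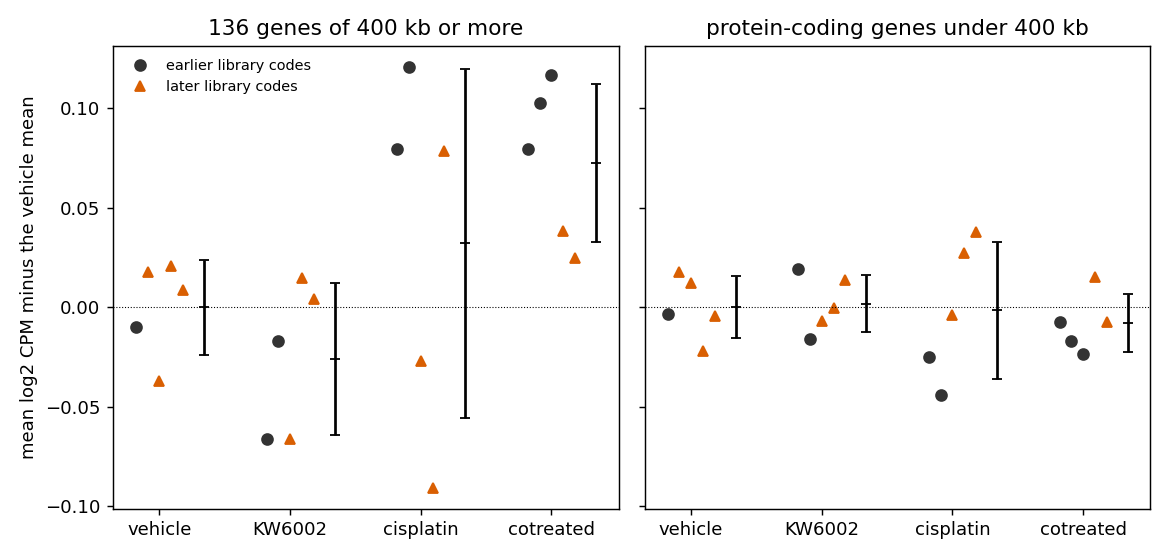
Mean log2 CPM per tumor minus the vehicle mean, for the 136 very long genes (left) and the protein-coding genes under 400 kb (right), by group, with the mean and SD beside each group and symbols for the 2 runs of library codes. The long genes run from -0.09 to 0.12, and the 5 tumors given cisplatin in the earlier codes lie between 0.08 and 0.12. Over the 132 genes with a mean count of 50 or more without cisplatin those 5 lie between 0.05 and 0.09.

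The library totals were 28371364 to 40965731 counts, of which the 136 genes took 0.674% to 0.837%. Around the limits of the class, Bnc2 (400.2 kb, -0.34) and Dst (400.4 kb, -0.16) were just inside the span, and Adk (396.0 kb, -0.02) and Plxdc2 (399.5 kb, 0.50) just outside. Npas3 (mean count 50.3, -0.03) and Sugct (56.2, -0.25) were just inside the mean count, and Ccser1 (41.2, -0.34) and Prkg1 (42.5, 0.55) just outside.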

How the data were processed

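RNA-seq libraries of 20 LLC1 tumors were analysed. The authors deposited raw counts per gene; per their methods, single-end stranded reads were aligned to mm10 with STAR, unique reads were kept and HTSeq 0.6.1p1 counted them per Ensembl gene. The strand setting is not given in the sources used here, so genes that overlap others (4 of the 136 share over 10% of exonic bases: Fars2, Arhgap6, Tshz2 and Pcdh7) are uncertain. Spans were end minus start in GENCODE M21 (GRCm38), which matched 35142 of 35226 genes. Counts were fitted with edgeR 4.0.16 (R 4.3.3): TMM scaling, filterByExpr, 4 group means over all 20 tumors, robust quasi-likelihood tests and Benjamini-Hochberg adjustment over 16665 genes. Levels are CPM on TMM-scaled totals, and log2 CPM used a prior count of 2. DESeq2 1.42.0, other scalings, filters, fold limits and member rules were alternatives. The fit was tested on simulated data.

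Vehicle replicate 1, labelled differently from replicates 2 to 5, was kept with them. The labels give no animal numbers; per the methods, cells were injected in 1 flank of each mouse, so tumors were taken as separate mice. Named genes were the 10 longest, those called with the smallest adjusted p without overlap (up to 8 lower and 8 higher), fragile site genes, up to 4 called in cotreated against cisplatin or the interaction, 2 on either side of each limit, and the smallest adjusted p of each role list. The members and lists were chosen with earlier results of these data known, and the role lists were completed once the members and their counts were known, before changes were computed. The values of some members are not reported here.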

Additional observations from a re-analysis of the deposited data

Results flagged for a closer look

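In 3 of 144 sets of 5 tumors examined (33 named genes and 3 class levels, by group), 1 tumor lay far from the other 4; chance gives about 1 in 20. Anks1b was at 5.52 CPM in vehicle replicate 2 and at 4.02 to 4.25 CPM in the other vehicle tumors. Tnr was at 0.967 CPM in KW6002 replicate 2 and at 1.59 to 1.83 CPM in the others. Hivep3 was at 20.1 CPM in cisplatin replicate 5 and at 15.5 to 16.5 CPM in the others.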

How the results depend on the processing

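With against without cisplatin, leaving out 1 tumor at a time gave 12 to 16 long genes lower and 20 to 22 higher, with a median of 0.015 to 0.051. In cisplatin against vehicle it gave 6 (without cisplatin replicate 4) to 10 lower and 14 to 19 higher, in cotreated against KW6002 11 to 13 and 24 to 29, in cotreated against cisplatin 5 to 20, in cotreated against vehicle 40 to 45, and in the interaction 0 to 3 (3 without cotreated replicate 4). The median in cisplatin against vehicle ran from -0.049 to 0.034 with 1 tumor left out, so its sign changed. DESeq2 called 3 in the interaction. DESeq2, the RLE and upper quartile scalings, the low count filters and the exonic length and GC offset moved no other count by over 1.5 times.

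Counts of long genes followed the fold limit. Shares over all tested genes at other fold limits, or in fits on fewer groups, are not given here. The counts below therefore describe the class alone. With no fold limit, 30 were lower and 36 higher with against without cisplatin, and 19 lower in cotreated against KW6002. With against without cisplatin, an unadjusted p below 0.05 (edgeR) was found for 73 long genes (53.7%), beside 49.5% of all tested genes. Tested against the limit itself, 3 were lower with against without cisplatin, 1 lower and 4 higher in cisplatin against vehicle, 6 lower and 15 higher in cotreated against KW6002, 0 in cotreated against cisplatin and 21 in cotreated against vehicle. Fitted on only the groups compared, 6 were lower in cisplatin against vehicle and 2 called in cotreated against cisplatin.

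A span of 300 kb or more (253 genes) gave 29 lower and 35 higher with against without cisplatin, 20 lower in cisplatin against vehicle, 29 lower and 46 higher in cotreated against KW6002 (median 0.0011), 30 in cotreated against cisplatin and 79 against vehicle. A span of 500 kb or more (80 genes) gave 8 and 11, 6 and 8, 15 higher in cotreated against KW6002, 9 and 24 in the same order. A mean count of 200 or more (107 genes) gave 8 and 12 with against without cisplatin, 9 higher in cisplatin against vehicle, 6 lower in cotreated against KW6002 (median 0.0011) and 27 in cotreated against vehicle. As shares, the counts with against without cisplatin were 11.5% lower and 13.8% higher at 300 kb, 10% and 13.8% at 500 kb, and 7.48% and 11.2% at the higher mean count. All tested genes gave 9.23% and 12.6% in the same fit. They gave 4.57% lower and 6.01% higher in cisplatin against vehicle, and 10.7% and 12.6% in cotreated against KW6002. Called were 4% in cotreated against cisplatin and 23.5% in cotreated against vehicle. A principal transcript of 400 kb or more, added after seeing the data, gave 9 lower.

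Within library codes, also added after seeing the data, the earlier codes gave a median of 0.067 in cisplatin against vehicle. Those codes hold 1 vehicle tumor, assumed to vary like the other groups, so no counts of that comparison are given here. The counts of other comparisons within the earlier codes, given above, rest on the same assumption. The later codes gave medians of -0.054 with against without cisplatin, -0.074 in cisplatin against vehicle and -0.0053 in cotreated against KW6002. In the last of these 14 were higher, beside 5.23% of all tested genes. Called were 0 in cotreated against cisplatin (0.00581% of all tested genes) and 26 in cotreated against vehicle (12.8%). The median of the long genes minus that of genes under 25 kb was 0.044, and -0.087 within the later codes. The causes were not tested.

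The replicate numbers did not pair the tumors (mean correlation of same-numbered tumors -0.0068, over 0.1 in 12 of 30 pairs, and 1 of 20 tumors closest to its own number). With the replicate block, 15 long genes were lower and 21 higher with against without cisplatin, 17 were called in cotreated against cisplatin, and no count moved by over 1.5 times.

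Of 1184 values of 37 named genes over the alternatives, 1095 kept direction and side of the threshold, 50 lost and 6 gained the call, and 33 changed sign, each of a gene not called in either fit. The log2 values that changed sign were without a filter Wwox 0.000729; with 10 counts in every tumor Wwox 0.0057; with the code block as a term Galntl6 -0.00506; with an offset for exonic length and GC Wwox 0.0181, Adk 0.0345, Npas3 0.00573; within the earlier codes Dst 0.00472, Plxdc2 -0.109, Npas3 0.173; within the later codes Magi2 -0.166, Galntl6 -0.121, Nbea -0.141, Erc2 -0.0201, Adk 0.0491. Leaving out 1 tumor at a time, the genes whose sign changed ran over Wwox -0.0258 to 0.0171; Npas3 -0.0855 to 0.0487; Adk -0.0411 to 0.00783; Galntl6 -0.0159 to 0.169. Of the 50 lost calls, 32 were of Ccser1 and Prkg1, outside the class, and 18 of members. Tested against the limit (edgeR), calls were lost by Rbms3 (adjusted p = 0.203), Immp2l (0.162), Exoc4 (0.127), Dnm3 (0.111), Cacna1c (0.231) and Bnc2 (0.769). Bnc2 also lost its call with the code block as a term (-0.32, just under the limit) and in 5 of the 20 fits without 1 tumor (-0.32 to -0.30). Rbms3, Psd3, Immp2l and Bnc2 (-0.07) lost theirs within the earlier codes, and Dnm3 and Cacna1c within the later. Without the 4 genes under a mean count of 50 in the tumors without cisplatin, a rule added after seeing the data, no count moved by over 1.5 times. Genes near a mean count of 50 rest on few reads.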
